A study of Mus musculus with 12 samples.

Results

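*Gal*, *Gpr141*, *Nanos1*, *Fam83f* and *Zfp260* are 5 genes whose RNA was lower in airway macrophages (AMs) of *Scnn1b*-transgenic (*Scnn1b*-Tg) mice than in AMs of wild-type (WT) mice. They were selected on this comparison. Of the 19161 rows of the count table, each row a gene, 16972 passed a filter on low counts, and 10 of these (0.0589%) were called lower in *Scnn1b*-Tg AMs, at a Benjamini-Hochberg adjusted p under 0.1 and a log2 fold change below −0.5. The 5 genes had the largest falls among called rows that were lower in all 4 batches, as 7.22% of all rows tested were. Their values in this comparison are therefore given as a description, without a test, and the count of 5 of 5 says nothing beyond the choice. What was measured is the amount of RNA, and transcription and decay were not measured separately.

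AMs are the phagocytes that live on the airway surface, where they clear inhaled particles and surplus surfactant. In *Scnn1b*-Tg mice, a subunit of the epithelial sodium channel is driven by the club cell secretory protein promoter, so that the airway epithelium, and not the macrophage, is the intended site of the transgene. The airways of these mice lose surface liquid and fill with mucus. The AMs came from lungs of 6-week-old female mice on the C57BL/6 background and were sorted as CD45+ Siglec-F+ CD11c+ cells, with WT littermates as the other group and no treatment in either. There were 6 libraries of each genotype. Batches 1, 2 and 3 held 1 *Scnn1b*-Tg and 1 WT library each (*Scnn1b*-Tg 1 to 3 and WT 1 to 3), and batch 4 held 3 of each (*Scnn1b*-Tg 4 to 6 and WT 4 to 6). The labels do not say how many animals stand behind a library, so that p-values measure the spread between these libraries. Within batch 4 the titles of the WT libraries carry another flow cell name than those of the *Scnn1b*-Tg libraries, and there flow cell and genotype cannot be told apart. The libraries summed to between 40259958 and 121813289 counts. Levels below are CPM (counts scaled to library size, here after TMM scaling), and 1 count stood for between 0.0101 and 0.0207 CPM.

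*Scnn1b* itself was higher in the *Scnn1b*-Tg library or libraries of every batch. It reached 72.0, 54.1 and 1.88 CPM in *Scnn1b*-Tg 1, 2 and 3 against 11.6, 12.8 and 1.48 CPM in WT 1, 2 and 3. In batch 4 it was 1.15, 4.35 and 2.70 CPM in *Scnn1b*-Tg AMs, and 0, 0 and 0.297 CPM in WT AMs. Batch 3 had the smallest ratio, 1.27, and no library went against its label within its batch.

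The 5 genes encode proteins of different families. *Gal* encodes the precursor of galanin, a secreted neuropeptide that acts through G protein-coupled receptors. *Gpr141* encodes an orphan G protein-coupled receptor found mainly in myeloid cells. *Nanos1* encodes an RNA-binding zinc finger protein that works with Pumilio proteins and brings the deadenylase complex to messenger RNAs. *Fam83f* belongs to a family of proteins that anchor casein kinase 1, and *Zfp260* encodes a zinc finger protein of the DNA-binding kind.

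Levels can be compared between genes only per length, here as CPM per kb of exon. In WT AMs of batches 1 to 3, *Gal* stood at 890 ± 48.0 CPM per kb (SD, n = 3), *Gpr141* at 2.58 ± 0.616, *Fam83f* at 2.19 ± 0.967, *Nanos1* at 1.43 ± 0.216 and *Zfp260* at 1.07 ± 1.29 CPM per kb. In WT AMs of batch 4 the order was *Gal* at 105 ± 5.06, *Fam83f* at 4.54 ± 0.683, *Gpr141* at 2.93 ± 0.462, *Zfp260* at 2.82 ± 1.66 and *Nanos1* at 1.44 ± 0.265 CPM per kb (SD, n = 3). *Gal* was far above the other genes in both sets of libraries. In batches 1 to 3 the ranges of *Gpr141*, *Fam83f*, *Nanos1* and *Zfp260* overlapped, except that the lowest *Gpr141* library, at 1.95 CPM per kb, was above the highest *Nanos1* library, at 1.68 CPM per kb. In batch 4 the lowest *Fam83f* value, 3.84 CPM per kb, exceeded the highest *Gpr141* value, 3.34 CPM per kb, and the lowest *Gpr141* value, 2.43 CPM per kb, exceeded the highest *Nanos1* value, 1.72 CPM per kb. *Zfp260*, from 0.907 to 3.89 CPM per kb, overlapped all 3 and had no place in the order beyond its spread.

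**Figure D1:**
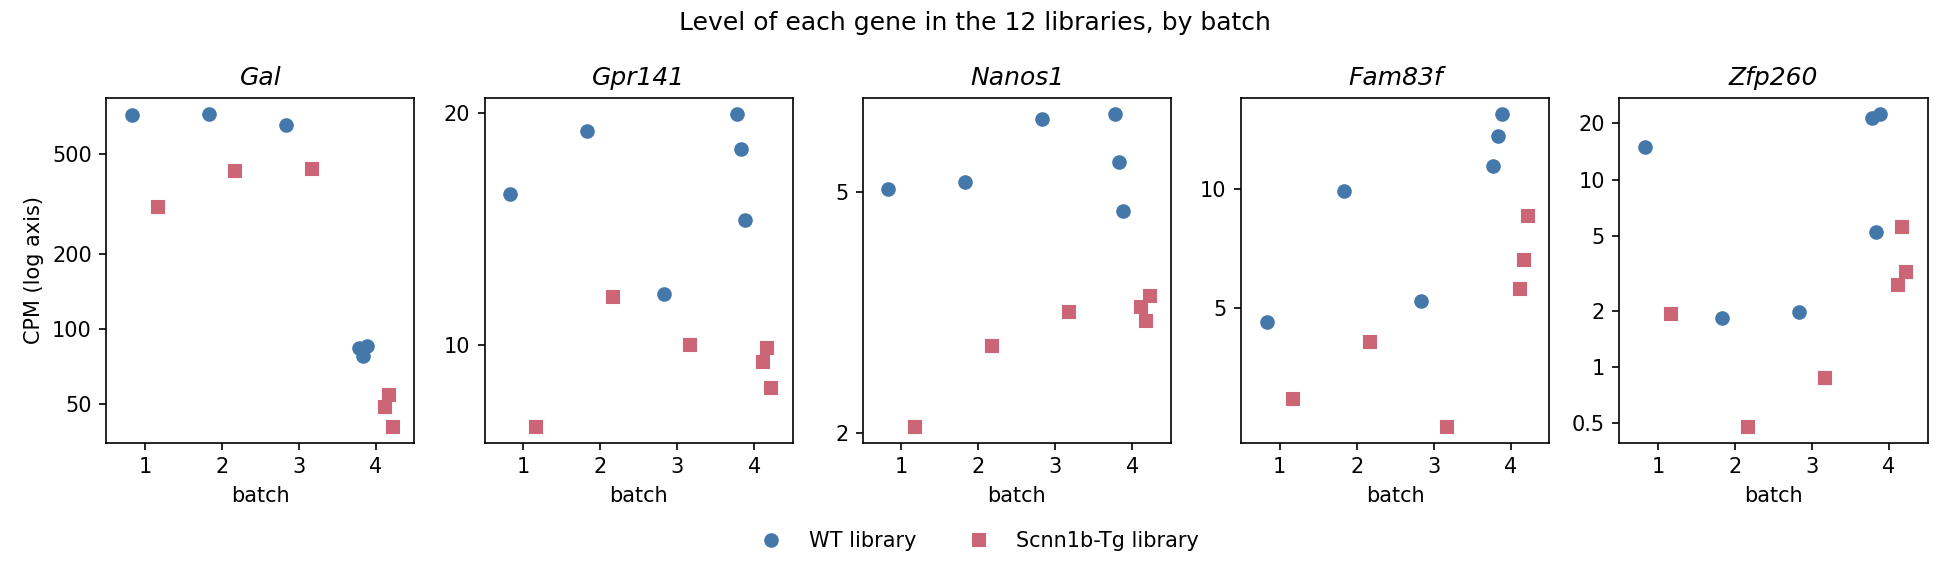
CPM of each gene (vertical log axis, with a scale of its own in each panel) in the 12 libraries, placed by batch on the horizontal axis; circles are WT libraries and squares are *Scnn1b*-Tg libraries. The squares lie below the circles of the same batch in each panel except for *Zfp260* in batch 4, where 1 *Scnn1b*-Tg library at 5.62 CPM lies above 1 WT library at 5.25 CPM.

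*Gal* (ENSMUSG00000024907, mm10 chr19:3409915-3414544, minus strand, 2 annotated transcripts of 6 exons) was the most abundant of the 5 genes. In WT AMs it had 717, 728 and 658 CPM in batches 1, 2 and 3, and 83.8, 78.0 and 85.6 CPM in batch 4. In *Scnn1b*-Tg AMs it had 307, 429 and 438 CPM in batches 1, 2 and 3, and 48.8, 54.6 and 40.5 CPM in batch 4. The genotypes did not overlap within batches 1 to 3 or within batch 4, but they overlapped over all 12 libraries, because every library of batch 4 was below every library of batches 1 to 3. How many of all rows were apart within a set in this way was not counted. The choice of genes lower in every batch favours it, for *Fam83f* below as well. The *Scnn1b*-Tg level was 0.427, 0.589, 0.666 and 0.582 times the WT level in batches 1 to 4, and the log2 fold change over all libraries with batch as a block was −0.82 (SE 0.10). Leaving out either library of batch 1, 2 or 3 takes that batch out of the comparison, so that leaving out 1 library at a time amounts to 9 different fits for each gene. They moved the log2 fold change of *Gal* between −0.87 (without batch 3) and −0.74 (without batch 1), and it stayed past the thresholds of the choice in 9 of 9. In a sorted bulk sample, fewer cells that make a transcript and less of it per cell cannot be told apart, for this gene and for the others.

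*Gpr141* (ENSMUSG00000053101, chr13:19749682-19824257, minus strand, 4 transcripts) had 15.7, 19.0, 11.6, 20.0, 18.0 and 14.5 CPM in WT 1 to 6. The *Scnn1b*-Tg libraries 1 to 6 had 7.81, 11.5, 9.997, 9.48, 9.89 and 8.78 CPM. Every *Scnn1b*-Tg library was below every WT library, as in 0.0589% of all rows tested, although the margin was narrow, 11.5 CPM in *Scnn1b*-Tg 2 against 11.6 CPM in WT 3. Batch 3 carried the smallest difference, with a *Scnn1b*-Tg level 0.860 times that of WT, against 0.497, 0.607 and 0.536 times in batches 1, 2 and 4. The spread was uneven within batch 4, with a coefficient of variation of 15.8% in WT AMs and 5.98% in *Scnn1b*-Tg AMs (n = 3 each). Over all libraries the log2 fold change was −0.77 (SE 0.14). It went down to −0.89 without batch 3 and up to −0.71 without WT 4, and *Gpr141* was past the thresholds in 1 of the 9 fits, the one without batch 3.

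*Nanos1* (ENSMUSG00000072437, chr19:60755987-60759914, plus strand) is a gene of a single exon. Its level was 5.06, 5.21, 6.60, 6.74, 5.60 and 4.66 CPM in WT 1 to 6, and 2.05, 2.79, 3.17, 3.24, 3.07 and 3.37 CPM in *Scnn1b*-Tg 1 to 6. All *Scnn1b*-Tg libraries were below all WT libraries, with a gap from 3.37 to 4.66 CPM. The ratios to WT were 0.405, 0.536, 0.480 and 0.569 in batches 1 to 4. The log2 fold change was −0.95 (SE 0.18), and between −1.02 (without WT 6) and −0.88 (without batch 1) when 1 library was left out. *Nanos1* was past the thresholds in 0 of these 9 fits. Its counts were few, between 148 and 496 in a library.

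*Fam83f* (ENSMUSG00000022408, chr15:80671847-80700425, plus strand, 1 transcript of 5 exons) had 4.59, 9.88 and 5.18 CPM in WT 1 to 3, and 11.5, 13.6 and 15.6 CPM in WT 4 to 6. In *Scnn1b*-Tg 1 to 3 it had 2.92, 4.08 and 2.48 CPM, and in *Scnn1b*-Tg 4 to 6 it had 5.58, 6.61 and 8.56 CPM. The genotypes were apart within batches 1 to 3, where the highest *Scnn1b*-Tg library was at 4.08 and the lowest WT library at 4.59 CPM, and within batch 4, but not over all 12 libraries. The ratios were 0.636, 0.413, 0.479 and 0.510 in batches 1 to 4, and the log2 fold change was −0.98 (SE 0.16). The fits without 1 library gave values from −1.07 (without *Scnn1b*-Tg 6) to −0.93 (without *Scnn1b*-Tg 4), with *Fam83f* past the thresholds in 1 of 9, the one without *Scnn1b*-Tg 6. The antisense gene *A430088P11Rik* shares 686 exon bases with *Fam83f*, 22.9% of its exon length. The counting did not use strand, so that counts in these bases cannot be assigned to either gene.

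*Zfp260* (ENSMUSG00000049421, chr7:30094777-30107622, plus strand, 7 transcripts) had the largest fall and the widest spread. The WT libraries 1 to 6 had 14.9, 1.84, 1.96, 21.3, 5.25 and 22.5 CPM. The *Scnn1b*-Tg libraries had 1.91, 0.478, 0.875, 2.73, 5.62 and 3.23 CPM. WT 1, 4 and 6 were high, whereas WT 2, 3 and 5 lay in the range of the *Scnn1b*-Tg libraries, and in batch 4 *Scnn1b*-Tg 5 was above WT 5. The 0.478 CPM of *Scnn1b*-Tg 2 stood for 42 counts. Ratios to WT were 0.128, 0.260, 0.447 and 0.236 in batches 1 to 4, and the log2 fold change was −2.06 (SE 0.39). Among the 3 WT libraries of batch 4 the coefficient of variation was 58.9%. Without WT 5 the log2 fold change was −2.26, and this was the 1 fit of 9 in which *Zfp260* was past the thresholds. Without batch 1 it was −1.88.

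**Figure D2:**
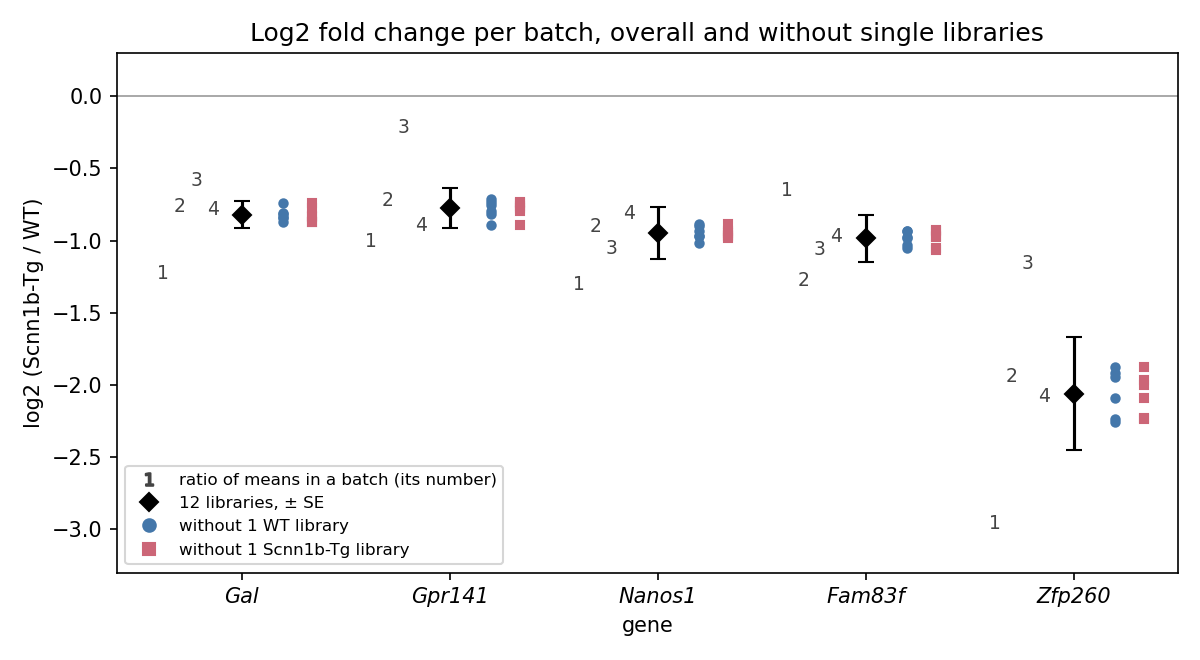
Log2 ratio of *Scnn1b*-Tg to WT (vertical axis) for the 5 genes; digits mark the ratio of mean CPM in the batch of that number, diamonds the fit to all 12 libraries with bars of 1 SE, and small circles and squares the fits without 1 WT or 1 *Scnn1b*-Tg library. *Zfp260* has the widest range over batches, from −2.96 in batch 1 to −1.16 in batch 3, and the value of *Gpr141* nearest to 0 is the −0.22 of batch 3.

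Just outside the choice were the other 5 rows called lower. *Gpr141*, the last inside, had a log2 fold change of −0.77, and *Krt79*, the first outside, had −0.65 (SE 0.07), with 312 to 431 CPM in *Scnn1b*-Tg AMs and 506 to 638 CPM in WT AMs. *Krt79* encodes a keratin and is on the list of airway macrophage markers. The others were *Itga4*, the α4 integrin chain, at −0.59, the scaffold gene *Iqgap2* at −0.57, *Dennd4a* at −0.51 and *Eid1* at −0.50. DESeq2's Wald test without shrinkage called 67 rows lower, and 52 of them both passed the filter on low counts and were lower in all 4 batches. Among these 52 *Zfp260* ranked at 7, *Fam83f* at 24, *Nanos1* at 25, *Gal* at 28 and *Gpr141* at 31, so that 0 of the 5 were among the 5 largest of these falls. The 5 genes kept their order among themselves, with other rows in between except between *Fam83f* and *Nanos1*.

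Whether the genotype difference itself differed between batches 1 to 3 and batch 4 was not used in the choice, except that a fall was asked for in each batch, which limits opposite signs. Among all rows, 0.112% had such a difference at an adjusted p under 0.1 by edgeR's quasi-likelihood test. None of the 5 genes had one (0 of 5), 0 of 5 had an unadjusted p under 0.05, as 1130 of the 16972 rows had, and DESeq2's Wald test called 0 of 5 and 237 of 13928 rows. With shares this small among all rows, 0 of 5 does not set these genes apart. The log2 fold change of batch 4 less that of batches 1 to 3 was 0.08 for *Gal*, with a 95% interval from −0.37 to 0.52, and −0.25 for *Gpr141*, from −0.87 to 0.38. It was 0.27 for *Nanos1*, from −0.54 to 1.09, and 0.03 for *Fam83f*, from −0.73 to 0.79. For *Zfp260* it was −0.05, with an interval from −1.94 to 1.84. When 1 library was left out, the difference ran from −0.09 to 0.24 for *Gal* and from −0.41 to −0.01 for *Gpr141*. It ran from 0.15 to 0.42 for *Nanos1*, from −0.16 to 0.22 for *Fam83f* and from −0.51 to 0.41 for *Zfp260*. The adjusted p lay between 0.926 and 1 for the 5 genes with edgeR.

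The level of 3 of the 5 genes differed between batches 1 to 3 and batch 4, a comparison that the choice did not use. The model for it held genotype and took libraries of the same batch as separate, although 1 of the sets is a single batch, so that the p-values may be too small. *Gal* was 8.38-fold higher in batches 1 to 3, at 546 ± 178 CPM against 65.2 ± 19.6 CPM (SD, n = 6 each). Its log2 fold change of batch 4 against batches 1 to 3 was −3.06 (SE 0.11, adjusted p = 1.24e-09 with edgeR's quasi-likelihood test and Benjamini-Hochberg adjustment), and the lowest library of batches 1 to 3, at 307 CPM, was above the highest of batch 4, at 85.6 CPM. *Fam83f* changed the other way, from 4.85 ± 2.66 CPM in batches 1 to 3 to 10.2 ± 3.98 CPM in batch 4 (SD, n = 6 in each set). This was a log2 difference of 1.09 (SE 0.23, adjusted p = 0.00167 with edgeR), and within each genotype the batch 4 libraries were all above those of batches 1 to 3. *Zfp260* was higher in batch 4 as well, at 10.1 ± 9.21 against 3.65 ± 5.53 CPM, with a log2 fold change of 1.61 (SE 0.58, adjusted p = 0.0360 with edgeR) and overlapping libraries. With WT libraries alone the value for *Zfp260* was 1.39 and did not pass the test (adjusted p = 0.286 with edgeR, the highest over the alternatives, which began at 0.00258). With both genotypes, leaving out 1 library moved the value for *Zfp260* between 1.42 (without *Scnn1b*-Tg 5) and 2.42 (without WT 1).

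Such differences were common. Of all rows tested, 30.1% were called lower and 21.3% higher in batch 4, against 1 and 2 of the 5 genes, and 10.5% of rows had a lower log2 fold change than *Gal*. The median row stood at −0.20 with TMM scaling and at 0.28 with library totals alone, which turned the split of called rows from 3607 higher and 5117 lower to 6033 higher and 3368 lower. *Gpr141* (0.06, adjusted p = 0.770) and *Nanos1* (0.14, adjusted p = 0.574) did not pass edgeR's test with TMM scaling. With library totals alone both were called higher in batch 4, at 0.54 (adjusted p = 0.0145) and 0.62 (adjusted p = 0.0230), the lowest over their alternatives, which reached 0.998 and 0.977. *Gal* kept its direction, at −2.58. The study used different library kits and sequencers, which the labels do not assign to libraries, and kit, sequencer, date and litter cannot be told apart here. In the genotype comparison the median row stood at 0.01 with either TMM or library totals.

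The pattern of each gene was set against all 16971 other rows by Pearson's r of log2 CPM less the batch mean, over the 12 libraries, as a description. This measure holds the genotype difference on which the genes were selected. The nearest row to *Gal* was *Eid1* (r = 0.985), a gene for an inhibitor of acetyltransferases, followed by *Cidec* (0.970), a lipid droplet gene, and *Pgrmc1* (0.958). *Gpr141* was nearest to the cohesin gene *Stag2* (0.961), then to *Sned1* (0.961) and *Gm4117* (0.959), and *Nanos1* to *Ddx21* (0.960), an RNA helicase gene, then to *Hip1r* (0.942) and again *Pgrmc1* (0.941). *Fam83f* was nearest to *Gm16982* (0.978), *Gm12854* (0.957) and *Med19* (0.956). *Zfp260* was nearest to *Ffar2* (0.947), which encodes a receptor for short-chain fatty acids, to *Adss* (0.943) and to *Frg1* (0.937). Taking off the genotype mean within each batch leaves variation in the 6 libraries of batch 4 alone, and r then ranged from 0.28 for *Gal* and *Cidec*, which ranked at 5358 of the other rows, to 0.936 for *Gal* and *Eid1*, ranked at 232. The best rank was 174. Of the 15 places nearest to the 5 genes, held by 14 different rows, 0 were among the 3 nearest by that measure. Between the 5 genes themselves, r was 0.774 to 0.935 less the batch mean, and −0.73 (*Gpr141* and *Fam83f*) to 0.81 (*Gpr141* and *Nanos1*) less the genotype mean too.

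Genes of the same pathways could be followed only where a row had a name. Names were largely limited to rows that differ by genotype: an unadjusted p under 0.05 with edgeR was seen in 1345 of the 1999 named rows and in 122 of the 14973 others tested. The counts below therefore say nothing about the rest of each list. All 60 rows called in the genotype comparison, 50 higher and 10 lower, were among them. Of 9 genes for galanin, its relatives and their receptors, 1 had a name, *Gal* itself. Of 31 other neuropeptides, vasoactive peptides and receptors 4 had a name, and 0 were called with edgeR. The estimate was below 0 for 3 of the 4 and above 0 for 1. *Penk*, the enkephalin precursor gene, stood at 10.2 ± 8.11 CPM in *Scnn1b*-Tg and 13.6 ± 6.31 CPM in WT AMs (SD, n = 6 each). *Vipr1* went the other way, at 18.9 ± 5.34 CPM in *Scnn1b*-Tg and 14.3 ± 3.86 CPM in WT AMs (SD, n = 6 each). Among 45 G protein-coupled receptor genes of leukocytes 15 had a name, 1 was called lower (*Gpr141*) and 0 higher, and their median log2 fold change was 0.23, against 0.20 for all named rows and 0.01 for all rows tested. The estimate was above 0 for 10 of the 15 and below 0 for 5. The niacin receptor gene *Hcar2* stood at 171 ± 53.8 CPM in *Scnn1b*-Tg and 117 ± 37.8 CPM in WT AMs (SD, n = 6 each). The formyl peptide receptor gene *Fpr2* stood at 213 ± 42.8 CPM in *Scnn1b*-Tg and 274 ± 36.2 CPM in WT AMs (SD, n = 6 each), and *Ffar2* at 34.0 ± 18.5 and 53.6 ± 28.6 CPM, and none of these 3 was called.

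For the Nanos, Pumilio and deadenylation list, 2 of 26 genes had a name and 1 was called, *Nanos1*. The other was *Zfp36*, whose product directs AU-rich messenger RNAs to decay, at 372 ± 155 CPM in *Scnn1b*-Tg and 258 ± 32.0 CPM in WT AMs (SD, n = 6 each). In the list of Fam83 proteins and casein kinase 1, 1 of 14 had a name, *Fam83f*. Of 26 zinc finger genes near *Zfp260* and corepressors, 2 had a name, *Zfp260* and the heterochromatin protein gene *Cbx3*, which was not called, at 141 ± 115 and 152 ± 124 CPM (SD, n = 6 each).

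Markers of airway macrophages were present in each library. *Siglecf*, a gene of the sort, ranged from 239 to 585 CPM. It was lower in *Scnn1b*-Tg libraries in all 4 batches, with 395 to 473 CPM against 528 to 585 CPM in batch 4, but was not called (log2 fold change −0.31), and its part in the falls was not tested. *Chil3*, the most abundant of the 12 named genes on this list of 26, ranged from 21372 to 59322 CPM. Of these 12 genes the estimate was above 0 for 6 and below 0 for 6, and by batch means 5 were lower in *Scnn1b*-Tg AMs in all 4 batches and 5 in none. On that list edgeR called *Fabp5* and *Ctsk* higher and *Krt79* lower in *Scnn1b*-Tg AMs. The summed level of the list was higher in *Scnn1b*-Tg libraries in batches 1, 2 and 3, at 69050, 41560 and 39739 CPM against 41036, 34888 and 34619 CPM, and the genotypes overlapped in batch 4, from 28285 to 31133 CPM. Most of this sum was *Chil3*, at 59322 CPM in *Scnn1b*-Tg 1 against 32061 CPM in WT 1, and also higher in *Scnn1b*-Tg 2 and 3. The part of the list in the falls was not tested. *Scnn1b*-Tg 1 also had by far the most RNA of genes on the dendritic cell list. The dendritic cell list, with 3 of 10 genes named and *Mgl2* the most abundant, summed to 85.9 CPM there and to between 0.298 and 7.59 CPM elsewhere, with *Flt3* at 0 in WT 3 to 6 and in *Scnn1b*-Tg 2 and 4. This sum was higher in *Scnn1b*-Tg libraries in every batch, without overlap in batch 4 (means of 3.12 and 0.375 CPM, n = 3 each), and its part in the falls was not tested. In *Scnn1b*-Tg 4 the sum was *Cd209a* alone, at 41 counts, and *Mgl2* was at 0, below all 3 WT libraries of that batch. The study stained the proteins of *Cd209a* and *Mgl2* as markers of macrophage polarization, so that this list does not single out dendritic cells. The epithelial list had 3 of 20 genes named, among them *Scnn1b* itself. Its most abundant gene, *Cdh1*, was at 162 and 142 CPM in *Scnn1b*-Tg 1 and 2 and at 86.9 to 125 CPM elsewhere. *Cdh1* was higher in *Scnn1b*-Tg libraries in batches 1 to 3 and in the mean of batch 4, where the genotypes overlapped. The remaining named gene, *Foxj1*, was lower in *Scnn1b*-Tg 1 (0.426 CPM) than in WT 1 (0.482 CPM). It was higher in *Scnn1b*-Tg libraries in batches 2 and 3. In batch 4 *Foxj1* was at 0.694 to 1.19 CPM in *Scnn1b*-Tg libraries and at 0.250 to 0.403 CPM in WT libraries. The part of the epithelial list in the falls was not tested. Without *Scnn1b*-Tg 1, and so without batch 1, the log2 fold changes were −0.74 for *Gal*, −0.73 for *Gpr141*, −0.88 for *Nanos1*, −1.05 for *Fam83f* and −1.88 for *Zfp260*. Of the 5 genes *Gal* alone was still past the thresholds in that fit, which called 3 rows lower, against 10 with all libraries. This was not particular to *Scnn1b*-Tg 1. *Gal* alone was past them also without batch 2, WT 4, WT 6, *Scnn1b*-Tg 4 or *Scnn1b*-Tg 5.

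Monocyte and interstitial macrophage genes, 4 of 17 named and led by *Csf1r*, summed to between 122 and 212 CPM in batches 1 to 3 and between 270 and 333 CPM in batch 4. The sum was thus higher in batch 4, as *Fam83f* and *Zfp260* were, whereas *Gal* was lower there. Other markers also differed between the sets without overlap. *Siglecf* was higher in batch 4 (395 to 585 CPM against 239 to 367 CPM), whereas the airway macrophage sum above and *Fabp4* (85.9 to 113 CPM against 174 to 481 CPM) were lower there, and their part was not tested. The sum of the monocyte list was also higher in *Scnn1b*-Tg libraries in each batch, with at least 290 CPM against at most 285 CPM in batch 4. Most of the sum was *Csf1r*, and *Vcan* of the same list had lower *Scnn1b*-Tg means in all 4 batches, at 0.552 ± 0.420 CPM against 1.72 ± 1.27 CPM in WT AMs over all libraries (SD, n = 6 each). The part of the list in either difference was not tested. Neutrophil genes, 4 of 12 named and *Mmp8* the most abundant, summed to between 73.8 and 118 CPM in WT and between 105 and 163 CPM in *Scnn1b*-Tg libraries, with *Mmp8* called higher by edgeR. *Csf3r* went the other way, with lower *Scnn1b*-Tg means in all 4 batches, although *Scnn1b*-Tg 4 (54.1 CPM) was above WT 4 (53.8 CPM). The sum was higher in the *Scnn1b*-Tg libraries in each batch, by a narrow margin in batch 4 (118 CPM in both *Scnn1b*-Tg 5 and WT 5), and its part in the falls was not tested. Of the B, T and NK cell list 1 of 13 had a name, *Il7r*, at no more than 4.25 CPM in any library and at 0 in WT 3, and of the eosinophil list 0 of 7.

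Promoters are shown to set the base composition of the genes side by side. That the 5 genes were lower together follows from the choice, and it gives no ground to look for a shared feature. RefSeq's table of promoters (GRCm38.p6, 250 bases before to 50 bases after a start) held 4 of the 5 genes, all but *Fam83f*. They differed widely in CpG content. *Nanos1* had 34 CpG and 71.7% GC in its 300 bases, *Gal* 16 CpG and 63.3% GC, *Zfp260* 5 CpG and 45.7% GC, and *Gpr141* 2 CpG and 37.3% GC, against a median of 7 CpG and 52.7% GC over 32851 promoters. The start given for *Zfp260* is not that of a GENCODE transcript. *Nanos1* had more CpG than 92.3% of these promoters, and 14.1% of promoters had fewer than *Gpr141*. The windows of *Nanos1* (chr19:60755737-60756036, plus strand), *Gal* (chr19:3414495-3414794, minus strand) and *Gpr141* (chr13:19824208-19824507, minus strand), the highest, the next and the lowest in CpG, read as follows from 5′ to 3′, with each CpG in capitals.
Nanos1: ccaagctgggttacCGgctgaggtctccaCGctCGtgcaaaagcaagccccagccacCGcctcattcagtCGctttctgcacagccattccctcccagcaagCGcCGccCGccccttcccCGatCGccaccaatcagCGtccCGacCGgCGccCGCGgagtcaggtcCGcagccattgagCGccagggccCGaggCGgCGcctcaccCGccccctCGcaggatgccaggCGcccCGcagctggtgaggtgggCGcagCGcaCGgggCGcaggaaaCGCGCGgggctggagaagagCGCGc
Gal: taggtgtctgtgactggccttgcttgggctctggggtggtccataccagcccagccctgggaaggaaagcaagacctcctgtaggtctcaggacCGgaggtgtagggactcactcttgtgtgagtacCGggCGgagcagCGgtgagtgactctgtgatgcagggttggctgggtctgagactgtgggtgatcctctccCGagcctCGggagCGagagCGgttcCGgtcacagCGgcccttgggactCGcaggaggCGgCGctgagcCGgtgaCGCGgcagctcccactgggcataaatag
Gpr141: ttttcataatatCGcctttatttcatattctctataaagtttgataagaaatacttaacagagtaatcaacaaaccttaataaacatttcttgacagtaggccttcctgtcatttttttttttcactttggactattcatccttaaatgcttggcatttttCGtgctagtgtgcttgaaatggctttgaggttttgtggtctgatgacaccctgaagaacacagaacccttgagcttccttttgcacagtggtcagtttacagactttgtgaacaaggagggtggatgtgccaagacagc

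Motifs were searched on both strands of the 4 windows as plain letters. The GC box GGGCGG was found in *Gal* (at position −122 from the start) and 3 times in *Nanos1*, and in 35.7% of all promoters. CCAAT was found in *Nanos1* and in 37.4% of all promoters, and TATAAA in *Gpr141* and in 13.6%. The letters of the cyclic AMP response element TGACGTCA (1.79% of all promoters), the AP-1 site TGANTCA (7.81%), the ETS core GGAAGT (23.8%), the E-box CACGTG (7.15%), the C/EBP site TTGCGCAA (0.18%) and the interferon-regulatory factor site GAAANNGAA (8.56%) were in 0 of the 4 windows. A match of letters is a description and not a binding site. No searched motif was shared by more than 2 of the 4 genes.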

How the data were processed

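RNAseq of sorted AMs comprised 6 *Scnn1b*-Tg and 6 WT libraries, grouped by the genotype label. The authors aligned reads to mm10 with HISAT2 in the nf-core pipeline, without strand, and the deposited counts are whole numbers derived by StringTie from transcript coverage, so that totals are not numbers of reads. Rows carried no gene names. Each of 1999 genes was paired with the row whose weighted sum of 12 counts gave the gene's mean normalized count in a supplementary table within a relative difference of 1e-12 (next row at least 2.9e-07 away; of 999 genes held out of the fit, 999 found the same row). That mean was used for identity only, and the fold changes and p-values of the authors' own comparison in that table were not used. The other 17162 rows have no name here, and 14973 of them passed the filter and were tested.

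Counts were analysed in R 4.3.3 with edgeR 4.0.16 (TMM, expression filter, quasi-likelihood test, batch as block, Benjamini-Hochberg adjustment over 16972 rows). The difference between batch sets used an added coefficient, and the level between sets a model with genotype. Intervals are at 95% and use the degrees of freedom of that test. Correlations used log2 CPM with a prior count of 2. Alternatives used DESeq2 1.42.0, limma 3.58.1, other scalings, filters, blocks and left-out libraries. Procedures were tested on simulated data. Batch labels pair the libraries of batches 1 to 3, whose deviations from the genotype means correlated at 0.599, 0.622 and 0.453. Those means were over all libraries of a genotype. The correlations therefore hold the difference between batches 1 to 3 and batch 4, and cannot show that the libraries were paired. Positions and exon lengths came from GENCODE M21, which has the build of the counts. The text names the 5 members, all other rows called lower, the 3 named rows most like each member, and the named rows of the gene lists, with examples picked from these after their values were seen. The members and lists were chosen with earlier results of these data known.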

Additional observations from a re-analysis of the deposited data

Results flagged for a closer look

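The levels of the 5 genes, of *Scnn1b* and of the other 5 rows called lower were examined in each genotype, 22 groups of 6 libraries in all. No group had a highest or lowest library set apart from the rest by more than Dixon's 95% critical value, where chance gives about 1 in 20 groups. The WT levels of *Zfp260*, with WT 1, 4 and 6 high and WT 2, 3 and 5 low, did not pass it either. Each group holds batches 1 to 3 and batch 4, whose levels differ for *Gal*, *Fam83f* and *Zfp260*, so that the batch difference widens the range and the absence of a library set apart says little.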

How the results depend on the processing

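In the genotype comparison 60 rows were called with edgeR, batch as a block. There were 248 with DESeq2's Wald test, 97 with limma-voom and 38 at an adjusted p under 0.05. With a replicate block of 6 pairs there were 28. In batch 4 the numbers that make these pairs did not pair the libraries (correlations −0.06, 0.00 and −0.01). These used deviations from the genotype means of batch 4 alone and cannot be set against those of batches 1 to 3. With no replicate block edgeR called 0, with 337 rows at an unadjusted p under 0.05, and with batches 1 to 3 only it called 0, with 1009 such rows. With batch 4 only, also 6 libraries, it called 52, where flow cell and genotype cannot be told apart. Leaving out 1 library gave from 22 (without *Scnn1b*-Tg 1, and 23 without WT 1, which takes out the same batch) to 53 (without *Scnn1b*-Tg 5) rows. Rows called lower, 10 in the main fit, were 67 with DESeq2's Wald test and 20 with limma-voom. They were 4 at an adjusted p under 0.05, 3 with 6 pairs, and 0 with no replicate block or with batches 1 to 3 only. In these last settings the 5 genes cannot all have kept their call. In the difference of the genotype effect between batch sets, edgeR called 19 rows, 11 with no filter on low counts, from 6 (without WT 5) to 42 (without *Scnn1b*-Tg 6) with 1 library left out, and DESeq2 called 237. The total called for batches 1 to 3 against batch 4 moved by less than 1.5 times in every alternative run, but library totals alone turned its split from 3607 higher and 5117 lower to 6033 and 3368. Of the 15 places for rows most like the members, held by 14 rows, 14 were kept with a prior count of 0.5 and 0 after the genotype mean within each batch was also removed. The cause of these changes was not tested.

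The direction of the 5 falls was the same in all 110 values from the alternatives, and each differed from the main value by less than the gene's residual SD. That SD, from 0.18 for *Gal* to 0.78 for *Zfp260*, is a spread of single libraries and wider than the SE of each fall, so that the bound is loose. The 110 values also count both fits that take out the same batch, although these are 1 comparison. Over the alternatives that leave out no single library, the log2 fold change was −0.86 to −0.78 for *Gal*, −0.90 to −0.65 for *Gpr141*, −1.09 to −0.81 for *Nanos1*, −0.9996 to −0.97 for *Fam83f* and −2.19 to −1.999 for *Zfp260*. This sameness is in part fixed by the choice. None of the 75 alternative values of the difference between batch sets passed the threshold, but its sign turned for *Gal*, *Fam83f* and *Zfp260* when 1 library was left out. Of 85 alternative values of the level between sets, 82 stayed on the same side of it, *Gpr141* and *Nanos1* passed it with library totals alone, and *Zfp260* missed it with WT libraries only. Counts were few for *Zfp260*, *Nanos1* and *Fam83f*, with as few as 42, 148 and 173 in a library.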
